A study of Saccharomyces cerevisiae with 12 samples.

Results

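The yapsins and the PIR proteins of the budding yeast *Saccharomyces cerevisiae* were described across aspirin-treated and untreated cells of 2 strains. The members are the 6 yapsin genes *YPS1*, *MKC7*, *YPS3*, *YPS5*, *YPS6* and *YPS7* and the 4 PIR genes *PIR1*, *HSP150* (also called *PIR2*), *PIR3* and *CIS3* (also called *PIR4*). They were taken by symbol from the deposited table, where each of the 10 had its own probe set among the 5716 probe sets tested, and no filter on low values removed any of them. RNA was hybridized to 12 GeneChip Yeast Genome 2.0 arrays, 3 biological replicates in each of 4 groups. EG110 is the strain EG103 with its *SOD2* gene, which encodes the mitochondrial manganese superoxide dismutase (MnSOD), replaced by *TRP1* (*sod2*Δ::*TRP1*). EG103 is the wild type of the study, a *MATα* strain that carries the alleles *leu2-3 112*, *his3Δ1*, *trp1-289a* and *ura3-52* and is GAL+. The strains therefore differ in a working *TRP1* gene as well as in *SOD2*, and each is 1 laboratory strain. The 4 groups were aspirin-treated EG110, untreated EG110, aspirin-treated EG103 and untreated EG103 cells, all grown for 48 h in YPE medium, whose carbon source is ethanol. Treated cultures had 15 mM aspirin (acetylsalicylic acid), and the pH of their medium was set to 5.5 with Trizma base before inoculation.

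Yapsins are aspartyl proteases held at the plasma membrane and in the cell wall by a glycosylphosphatidylinositol anchor, and they cut proteins after basic residues. PIR proteins ("proteins with internal repeats") are heavily mannosylated wall proteins that the Kex2 protease trims on their way out of the cell and that attach to β-1,3-glucan through their repeats. Several genes of both families are known targets of the cell wall integrity pathway, in which wall sensors act through Pkc1 and the MAP kinase Slt2 on the transcription factor Rlm1, and some PIR genes are also known to be transcribed at the end of mitosis. Some members lie side by side in the R64 annotation of the yeast genome, which was used for names and neighbours only. *YPS1* and *YPS3* are adjacent on chromosome XII on the same strand, *PIR1* and *PIR3* are adjacent and divergent on chromosome XI, and *HSP150* and *CIS3* are adjacent and convergent on chromosome X.

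Values are log2 expression after robust multi-array average (RMA) normalization, so a difference of 1 is 2-fold. Levels were compared between arrays, and between probe sets only to place a gene roughly in the range of the arrays. A gene is said to have risen or fallen where limma's adjusted P was below 0.05, and to be called where it also changed at least 1.5-fold (0.58 on the log2 scale). With 3 arrays against 3, an exact permutation test of 1 gene (two-sided) reaches no lower P than 0.1. *SOD2* averaged 4.77 and 4.71 in aspirin-treated and untreated EG110 cells, against 14.28 and 14.30 in aspirin-treated and untreated EG103 cells. Genes specific to *MATα* cells (*MF(ALPHA)1*, *MF(ALPHA)2*, *STE3*, *SAG1*) had group means of 9.21 to 14.15, and genes specific to *MATa* cells (*STE2*, *MFA1*, *MFA2*, *BAR1*, *AGA2*), which were not at background, had 7.19 to 9.56. The arrays of the strains were shifted against each other: the median of all tested probe sets was 11.15 to 11.18 on EG110 arrays and 11.36 to 11.39 on EG103 arrays, and the median strain difference of all tested probe sets was -0.20 without and -0.19 with aspirin. Strain differences are therefore given as deposited and beside the value with each array centred on its own median. No 2 arrays held the same values. The RNA comes from whole cultures, so a change in the share of cells that express a gene and a change in RNA per cell cannot be told apart.

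The aspirin effect differed between the strains for some of these genes. In EG110 cells 8 of the 10 members rose with aspirin and none fell, and in EG103 cells 1 rose and 3 fell, with *YPS5* and *YPS6* passing in neither. By the stricter threshold, *MKC7* and *YPS3* were called higher in aspirin-treated EG110 cells, 2 of 10 where 5.9% of all tested probe sets were called higher, and none was called lower (6.09% of all). In EG103 cells *YPS3* and *PIR3* were called lower with aspirin, 2 of 10 where 0.857% of all tested probe sets were called lower, and none was called higher (1.75% of all). At an adjusted P below 0.05 with no fold threshold, 27.2% of all tested probe sets were higher and 25.1% lower with aspirin in EG110 cells, and 12% were higher and 8.59% lower in EG103 cells. The median effect of aspirin over the members was 0.30 in EG110 cells and -0.08 in EG103 cells, where the medians over all tested probe sets were 0.02 and 0.01. The difference of the effects, that in EG110 minus that in EG103 cells, was called for *YPS1*, *MKC7*, *YPS3*, *HSP150* and *PIR3*, all 5 positive, where 5.21% of all tested probe sets were called with a positive and 6.37% with a negative difference. With no fold threshold the difference was positive for 7 members, *PIR1* and *CIS3* being the others, and negative for none, where 16.2% and 17% of all tested probe sets were. The members were chosen with earlier results of these arrays known, so their counts describe these genes and were not tested as a set.

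**Figure D1:**
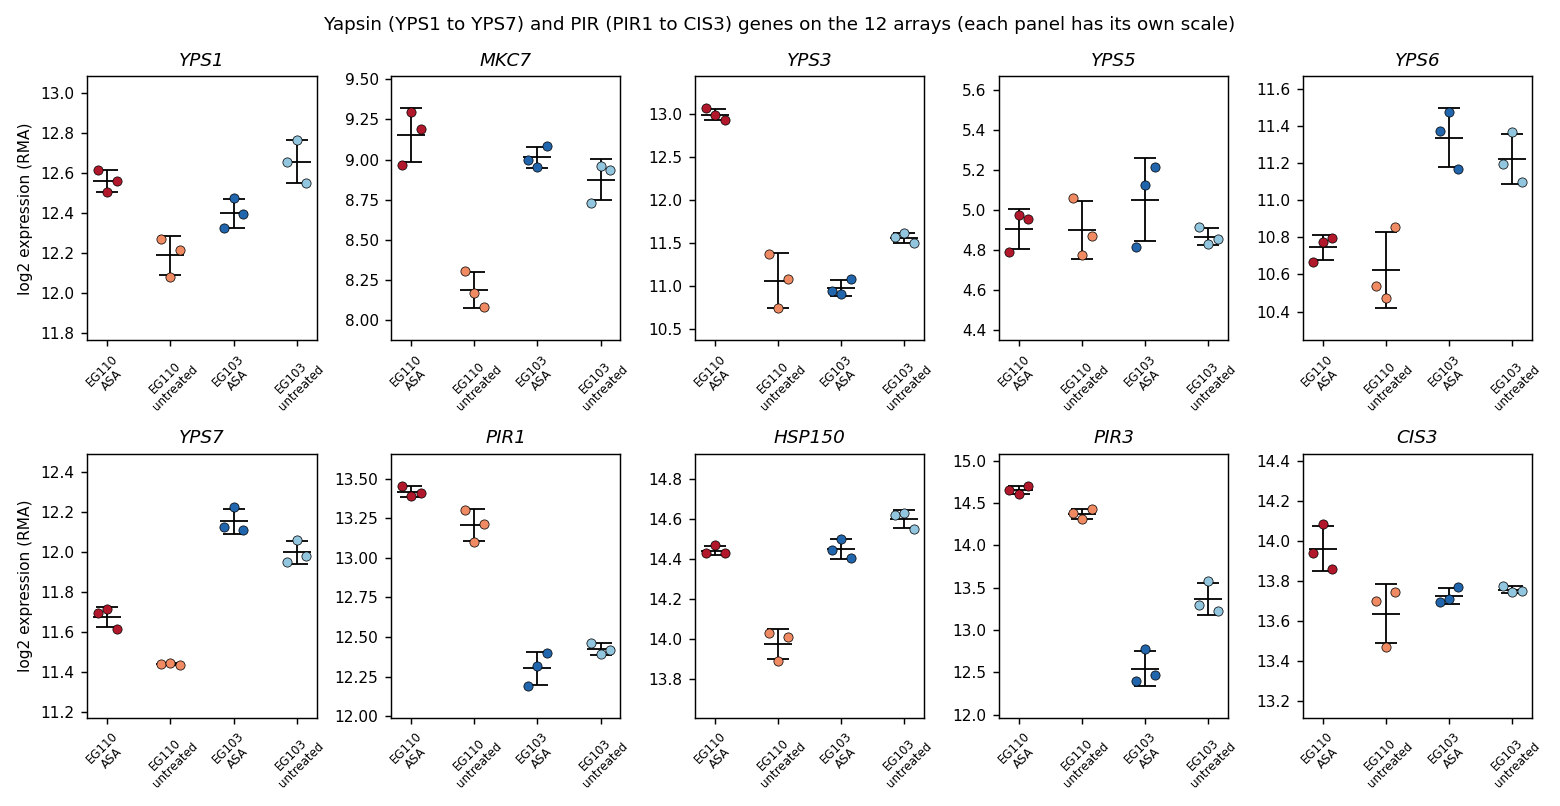
RMA log2 expression (vertical axis, each panel on its own scale) of the 6 yapsin and 4 PIR genes in aspirin-treated and untreated EG110 and EG103 cells. Each point is 1 array, and bars are the mean and the SD of 3 arrays. *YPS3* stood at 12.93 to 13.06 on the 3 aspirin-treated EG110 arrays and at 11.61 or below on the other 9, and *PIR3* was above 14.3 on all 6 EG110 arrays and below 13.6 on all 6 EG103 arrays.

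Among the yapsins, *YPS3* moved most. It measured 13.06, 12.99 and 12.93 in aspirin-treated EG110 cells, against 11.37, 10.74 and 11.08 in untreated EG110 cells. EG103 arrays gave 10.93, 10.90 and 11.08 with aspirin, against 11.57, 11.61 and 11.50 without. The aspirin-treated arrays thus lay above all untreated ones in EG110 cells and below all untreated ones in EG103 cells, with no overlap in either strain. *YPS3* rose 3.81-fold with aspirin in EG110 cells (log2 fold change 1.93 ± 0.12 SE, adjusted P = 2.32e-07, limma) and fell 1.5-fold in EG103 cells (-0.59 ± 0.12, adjusted P = 0.00761). The difference between these effects was 2.52 ± 0.17 (adjusted P = 1.3e-06), the 10th largest in size of the 5716. The call in EG103 cells sat at the fold threshold: it was lost without aspirin-treated EG103 replicate 1 or 2 or untreated EG103 replicate 1 or 2 (log2 fold changes -0.55 to -0.58, adjusted P of 0.0262 to 0.0366). It was also lost after joint quantile normalization (-0.57, adjusted P = 0.00841) and with centred arrays (-0.58, adjusted P = 0.00765). The 3 untreated EG110 arrays spread widely for this gene (SD 0.32), and leaving any array out kept the rise in EG110 cells between 1.77 and 2.09.

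As deposited, and through its EG103 call at the fold threshold, *YPS3* was also one of 8 probe sets among the 5716 (0.14%) with opposite calls. These 8 were called higher with aspirin in EG110 cells and called lower in EG103 cells. The others were *NCW2*, which encodes another anchored wall protein and is listed as YLR194C in the deposited table, *YPL014W*, *ARN1*, *SUL2*, *YOX1*, *FRE5* and *VHS1*, which were looked up after the values of *YPS3* were seen. Without aspirin, *YPS3* was lower in EG110 than in EG103 cells (-0.50 ± 0.12, adjusted P = 0.00283), but with the arrays centred the difference was -0.28 (adjusted P = 0.0618), and without untreated EG110 replicate 1 it was called (-0.65). With aspirin it was 4.05-fold higher in EG110 than in EG103 cells (2.02 ± 0.12, adjusted P = 4.19e-08, centred 2.22). By group mean the order was aspirin-treated EG103, untreated EG110, untreated EG103 and aspirin-treated EG110, and the lowest pair overlapped. The profiles closest to that of *YPS3* over the 12 arrays, each centred on its own mean, belonged to *TDA6*, *SUL2* and *YER130C*, with root mean square differences of 0.23, 0.24 and 0.28 where the median probe set was at 0.89.

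*MKC7*, first isolated as a multicopy suppressor of a *kex2* mutant and close in specificity to Yps1, was the other yapsin gene called in EG110 cells. It measured 8.97, 9.29 and 9.19 in aspirin-treated EG110 cells, against 8.31, 8.17 and 8.08 in untreated EG110 cells. The EG103 values were 9.00, 8.96 and 9.08 with aspirin, against 8.73, 8.96 and 8.94 without. The untreated EG110 arrays stood below all others, and among the other groups neighbours in level overlapped. *MKC7* rose 1.95-fold with aspirin in EG110 cells (0.96 ± 0.092, adjusted P = 5.74e-06), while its change in EG103 cells was 0.14 ± 0.092 (adjusted P = 0.308), and the difference between the effects was 0.82 ± 0.13 (adjusted P = 0.00056). Untreated EG110 cells had less *MKC7* RNA than untreated EG103 cells (-0.69 ± 0.092, adjusted P = 2.91e-05, called), and with centred arrays the gap was -0.47 (adjusted P = 0.000651), under the fold threshold. With aspirin the strains differed by 0.14 ± 0.092 (adjusted P = 0.194), which became 0.34 with centred arrays (adjusted P = 0.00564). *MKC7* lay low in the range of the arrays, with 6.53% of the tested probe sets at a lower mean.

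*YPS1* encodes the best studied yapsin, which processes secreted and wall proteins such as Gas1 and sheds the mucin Msb2. It measured 12.62, 12.51 and 12.56 in aspirin-treated EG110 cells, against 12.27, 12.08 and 12.22 in untreated EG110 cells. In EG103 cells it measured 12.33, 12.47 and 12.39 with aspirin, against 12.65, 12.77 and 12.55 without. As with its neighbour *YPS3*, the treated arrays were all above the untreated ones in EG110 cells and all below them in EG103 cells, though by less. *YPS1* rose by 0.37 ± 0.069 in EG110 cells (adjusted P = 0.000853) and fell by 0.26 ± 0.069 in EG103 cells (adjusted P = 0.023), both under the fold threshold, and the difference was 0.63 ± 0.098 (1.55-fold, adjusted P = 0.000526). The fall in EG103 cells lost its adjusted P without aspirin-treated EG103 replicate 1 (0.0975) or untreated EG103 replicate 1 (0.0597) or 2 (0.0783). The called difference went to 0.58, under the fold threshold, without untreated EG110 replicate 2 or untreated EG103 replicate 2.

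Without aspirin *YPS1* was lower in EG110 than in EG103 cells (-0.47 ± 0.069, adjusted P = 6.92e-05, centred -0.25). With aspirin the difference was 0.16 ± 0.069 (adjusted P = 0.0521, centred 0.36 with adjusted P = 0.000636). Untreated EG110 arrays were the lowest for *YPS1*, and aspirin-treated EG110 and untreated EG103 arrays, the highest groups, overlapped.

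*YPS7*, which encodes a putative yapsin, rose slightly in both strains and differed more by strain than by aspirin. It measured 11.69, 11.71 and 11.62 in aspirin-treated EG110 cells, against 11.44, 11.44 and 11.43 in untreated EG110 cells. EG103 arrays gave 12.12, 12.22 and 12.11 with aspirin, against 11.95, 12.06 and 11.98 without. No 2 neighbouring groups overlapped, and all 6 EG110 arrays were below all 6 EG103 arrays. The aspirin effects were 0.24 ± 0.051 in EG110 cells (adjusted P = 0.00209) and 0.16 ± 0.051 in EG103 cells (adjusted P = 0.0484), and they differed by 0.08 ± 0.072 (adjusted P = 0.434). The adjusted P in EG103 cells was between 0.0551 and 0.181 when any of 9 of the 12 arrays was left out, and stayed below 0.05 without untreated EG110 replicate 3, aspirin-treated EG103 replicate 3 or untreated EG103 replicate 2. *YPS7* was lower in EG110 than in EG103 cells without aspirin (-0.56 ± 0.051, adjusted P = 1.25e-06, centred -0.34) and with it (-0.48 ± 0.051, adjusted P = 4.09e-06, centred -0.28).

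*YPS6*, a putative yapsin linked to wall growth, also differed by strain, and its aspirin effects did not pass the test. It measured 10.67, 10.77 and 10.80 in aspirin-treated EG110 cells, against 10.54, 10.47 and 10.86 in untreated EG110 cells. The EG103 values were 11.37, 11.47 and 11.17 with aspirin, against 11.20, 11.37 and 11.10 without. The treated and untreated arrays overlapped within each strain, and all EG110 arrays were below all EG103 arrays. The aspirin effect was 0.12 ± 0.11 in both EG110 cells (adjusted P = 0.357) and EG103 cells (adjusted P = 0.478). The strain difference was called without aspirin (-0.60 ± 0.11, adjusted P = 0.000323) and with it (-0.59 ± 0.11, adjusted P = 0.000362), and both calls sat at the fold threshold. They were lost with centred arrays (-0.38 and -0.39), without untreated EG110 replicate 1 or 2 or untreated EG103 replicate 2 for untreated cells (-0.53 to -0.56), and without aspirin-treated EG110 replicate 1 or aspirin-treated EG103 replicate 1 or 2 for treated cells (-0.52 to -0.57).

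*YPS5*, a gene with similarity to the yapsins, was at the level of the array's background. Its values lay between 4.77 and 5.21 on the 12 arrays, and 83.2% to 89.5% of the probe sets with no *S. cerevisiae* gene were lower within a group. All neighbouring groups overlapped, and no comparison of the deposited values passed the test, with aspirin effects of 0.01 ± 0.10 in EG110 cells (adjusted P = 0.968) and 0.19 ± 0.10 in EG103 cells (adjusted P = 0.21). The strains, EG110 minus EG103, differed by 0.03 ± 0.10 without aspirin (adjusted P = 0.771, centred 0.26 with 0.0403). With aspirin the difference was -0.15 ± 0.10 (adjusted P = 0.209, centred 0.052 with 0.664), and its adjusted P was 0.0186 without aspirin-treated EG103 replicate 1. No change of this gene that held across settings was detectable at this signal.

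Among the PIR genes, *PIR3* separated the strains most. It measured 14.65, 14.60 and 14.70 in aspirin-treated EG110 cells, against 14.38, 14.31 and 14.43 in untreated EG110 cells. In EG103 cells it measured 12.39, 12.78 and 12.46 with aspirin, against 13.30, 13.57 and 13.22 without. None of the 4 groups overlapped, and the order was aspirin-treated EG103, untreated EG103, untreated EG110 and aspirin-treated EG110. *PIR3* was higher in EG110 than in EG103 cells by 1.01 ± 0.10 without aspirin (adjusted P = 3.44e-06, centred 1.23) and by 2.11 ± 0.10 with it (4.31-fold, adjusted P = 9.53e-09, centred 2.31). Its group means spanned 2.11, a wider range than that of 97.9% of the tested probe sets.

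With aspirin *PIR3* fell 1.76-fold in EG103 cells (-0.82 ± 0.10, adjusted P = 0.000431). In EG110 cells it rose by 0.28 ± 0.10 (adjusted P = 0.0399), and the difference between the effects was 1.10 ± 0.15 (adjusted P = 0.000189). The rise in EG110 cells did not hold its adjusted P without aspirin-treated EG110 replicate 1, 2 or 3 or untreated EG110 replicate 1 or 2 (0.0613 to 0.109), after quantile normalization (0.114), with centred arrays (0.0518) or with all probe sets but controls tested (0.0727). Without *PIR3*, 7 members rose in EG110 cells and 3 of the PIR genes did. The EG110 values were near the top of the arrays' range, 0.42 below the highest value of any probe set, and compression of high signals was not tested. The profiles closest to that of *PIR3* were those of *ARN1*, *JLP1* and *YJR096W*, at root mean square differences of 0.25, 0.25 and 0.26 where the median probe set was at 0.95.

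*PIR1*, the divergent neighbour of *PIR3*, encodes a wall protein found at bud scars, and it too was higher in EG110 cells. It measured 13.45, 13.39 and 13.41 in aspirin-treated EG110 cells, against 13.30, 13.10 and 13.21 in untreated EG110 cells. EG103 arrays gave 12.19, 12.32 and 12.40 with aspirin, against 12.46, 12.39 and 12.42 without. The EG110 arrays were all above the EG103 arrays, and treated and untreated arrays overlapped in EG103 cells only. *PIR1* was higher in EG110 cells by 0.78 ± 0.064 without aspirin (adjusted P = 5.54e-07, centred 1.00) and by 1.12 ± 0.064 with it (2.17-fold, adjusted P = 2.77e-08, centred 1.31). With aspirin it rose by 0.21 ± 0.064 in EG110 cells (adjusted P = 0.0149), its change in EG103 cells was -0.12 ± 0.064 (adjusted P = 0.202), and the effects differed by 0.33 ± 0.091 (adjusted P = 0.015). The rise in EG110 cells had an adjusted P of 0.055 without aspirin-treated EG110 replicate 1 and 0.0616 without untreated EG110 replicate 2.

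*HSP150* encodes a secreted mannoprotein induced by heat. It measured 14.43, 14.47 and 14.43 in aspirin-treated EG110 cells, against 14.03, 13.89 and 14.01 in untreated EG110 cells. The EG103 values were 14.45, 14.50 and 14.41 with aspirin, against 14.62, 14.63 and 14.55 without. The treated arrays were all above the untreated ones in EG110 cells and all below them in EG103 cells, and the treated groups of the strains overlapped. *HSP150* rose by 0.47 ± 0.051 in EG110 cells (adjusted P = 1.74e-05), its change in EG103 cells was -0.15 ± 0.051 (adjusted P = 0.0594), and the difference between the effects was 0.62 ± 0.073 (adjusted P = 7.47e-05, called). Untreated EG110 cells had less *HSP150* RNA than untreated EG103 cells (-0.62 ± 0.051, adjusted P = 5.61e-07, called), with a centred value of -0.40. Without untreated EG110 replicate 2 both calls went under the fold threshold (0.57 and -0.58). With aspirin the strains differed by -0.01 ± 0.051 (adjusted P = 0.889), and by 0.19 with centred arrays (adjusted P = 0.00788), so the direction depended on the scaling. *HSP150* also reached within 0.49 of the highest value on the arrays.

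*CIS3*, the convergent neighbour of *HSP150*, varied least of the PIR genes. It measured 13.94, 14.08 and 13.86 in aspirin-treated EG110 cells, against 13.70, 13.47 and 13.74 in untreated EG110 cells. In EG103 cells it measured 13.70, 13.71 and 13.77 with aspirin, against 13.78, 13.75 and 13.75 without. The aspirin-treated EG110 arrays were above all others, and among the other groups neighbours in level overlapped. *CIS3* rose by 0.33 ± 0.075 with aspirin in EG110 cells (adjusted P = 0.00307), its change in EG103 cells was -0.03 ± 0.075 (adjusted P = 0.805), and the difference was 0.36 ± 0.11 (adjusted P = 0.0219). With aspirin *CIS3* was higher in EG110 than in EG103 cells by 0.24 ± 0.075 (adjusted P = 0.0126, centred 0.44), and without it the strains differed by -0.12 ± 0.075 (adjusted P = 0.163, centred 0.10). Without aspirin-treated EG110 replicate 2 the difference of the effects had an adjusted P of 0.0552, and the strain difference with aspirin had 0.0628.

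**Figure D2:**
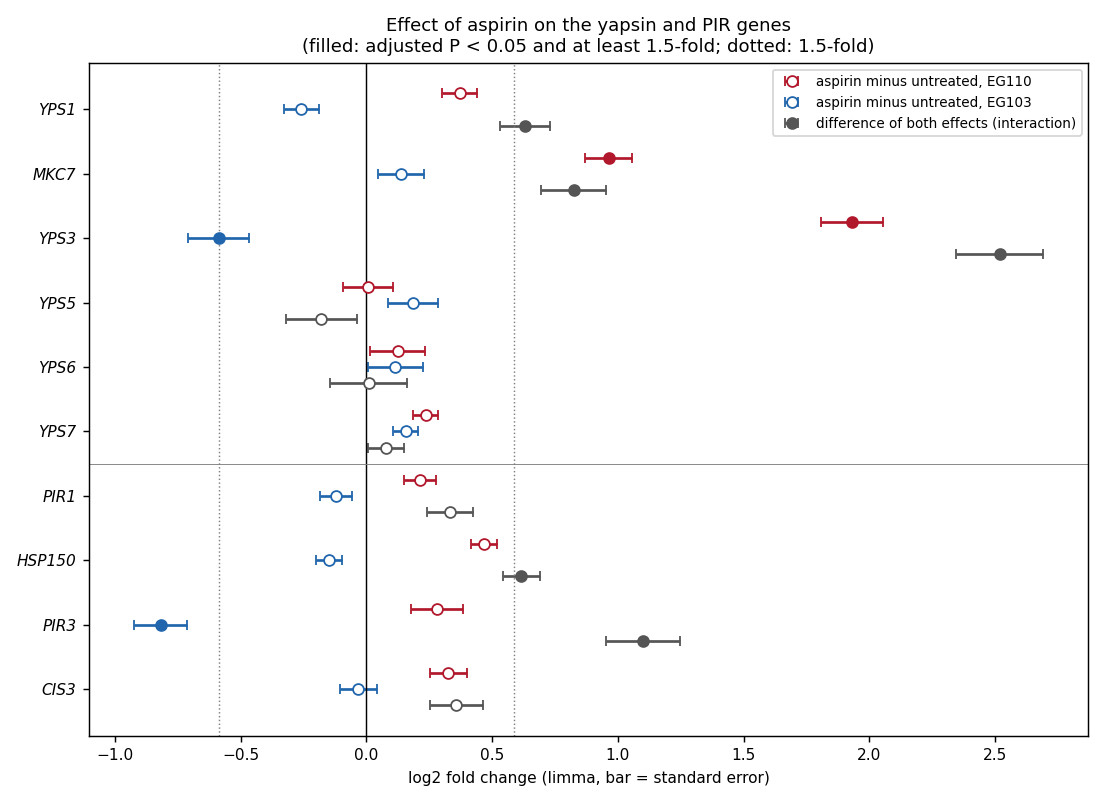
Aspirin effect on each gene as limma's log2 fold change (horizontal axis), aspirin-treated minus untreated, in EG110 and in EG103 cells, with the difference of the effects. Bars are standard errors, filled points passed an adjusted P of 0.05 and 1.5-fold, and dotted lines mark 1.5-fold. The EG110 points of *YPS3* (1.93) and *MKC7* (0.96) lie right of the upper line, and the EG103 points of *YPS3* (-0.59) and *PIR3* (-0.82) lie left of the lower one.

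Across the members, those that passed the test in EG110 cells all rose, and those that passed in EG103 cells went both ways. The only rise in EG103 cells was that of *YPS7* (adjusted P = 0.0484), which missed the test after quantile normalization (0.0625) and without any of several arrays. The 4 PIR genes all rose in EG110 cells, by 0.21 to 0.47, and none of them was called. Only the rise of *HSP150* passed in every setting (adjusted P of at most 0.00535). By the methods' t-test after Benjamini-Hochberg, the adjusted P was 0.0564 for *PIR1* and 0.0776 for *CIS3*, and the rise of *PIR3* missed the test in the settings given above. Of the yapsin genes, *YPS1*, *MKC7*, *YPS3* and *YPS7* rose in EG110 cells, by 0.24 to 1.93. In 8 of 10 members all aspirin-treated EG110 arrays lay above all untreated ones, and in none below them, where 32.2% of the tested probe sets were separated upward and 29.8% downward. In EG103 cells 1 member was separated upward and 4 downward, where 21.2% and 17.8% of the tested probe sets were. *YPS1*, *YPS3*, *HSP150* and *PIR3* were separated upward in EG110 and downward in EG103 cells, 4 of 10 where 3.24% of the tested probe sets were. By adjusted P alone, *YPS1*, *YPS3* and *PIR3* rose in EG110 and fell in EG103 cells, 3 of 10 where 1.17% did. This count was not stable for *PIR3* and *YPS1*. With all probe sets but controls tested, the rise of *PIR3* in EG110 cells had an adjusted P of 0.0727. The fall of *YPS1* in EG103 cells then had 0.0575. The array of untreated EG110 replicate 2 was below its group mean in 9 of the 10 members, by a mean deviation of -0.11, and so were aspirin-treated EG103 replicate 1 (-0.065) and untreated EG103 replicate 3 (-0.047), while untreated EG110 replicate 1 was below it in 1 of 10 (mean deviation 0.080). The aspirin effects are given without an array where a call turned on it. Untreated EG110 arrays enter both the aspirin effect in EG110 cells and the strain comparison of untreated cells, so these comparisons share values.

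Between the strains, 5 of the 10 members were called without aspirin and 4 with it. Without aspirin *PIR1* and *PIR3* were called higher in EG110 cells, 2 of 10 where 7.45% of all tested probe sets were, and *MKC7*, *YPS6* and *HSP150* were called lower, 3 of 10 where 17.4% were. With aspirin on both sides, *YPS3*, *PIR1* and *PIR3* were called higher in EG110 cells, 3 of 10 where 7.03% were, and *YPS6* was called lower, 1 of 10 where 18.1% were. The split of all calls moved with the scaling. Without aspirin 426 probe sets were called higher and 993 lower as deposited, 754 and 465 with centred arrays, and 619 and 552 after joint quantile normalization. With aspirin the same counts were 402 and 1033, 685 and 582, and 621 and 616. *PIR1* and *PIR3* in both comparisons and *YPS3* with aspirin were called higher in EG110 cells under all 3 scalings, and no lower call was made under all 3. With centred arrays no member was called lower in EG110 cells in either comparison, and after quantile normalization *MKC7* (-0.65, adjusted P = 4.71e-05) and *HSP150* (-0.63, adjusted P = 4.54e-07) were called lower without aspirin and none with it.

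**Figure D3:**
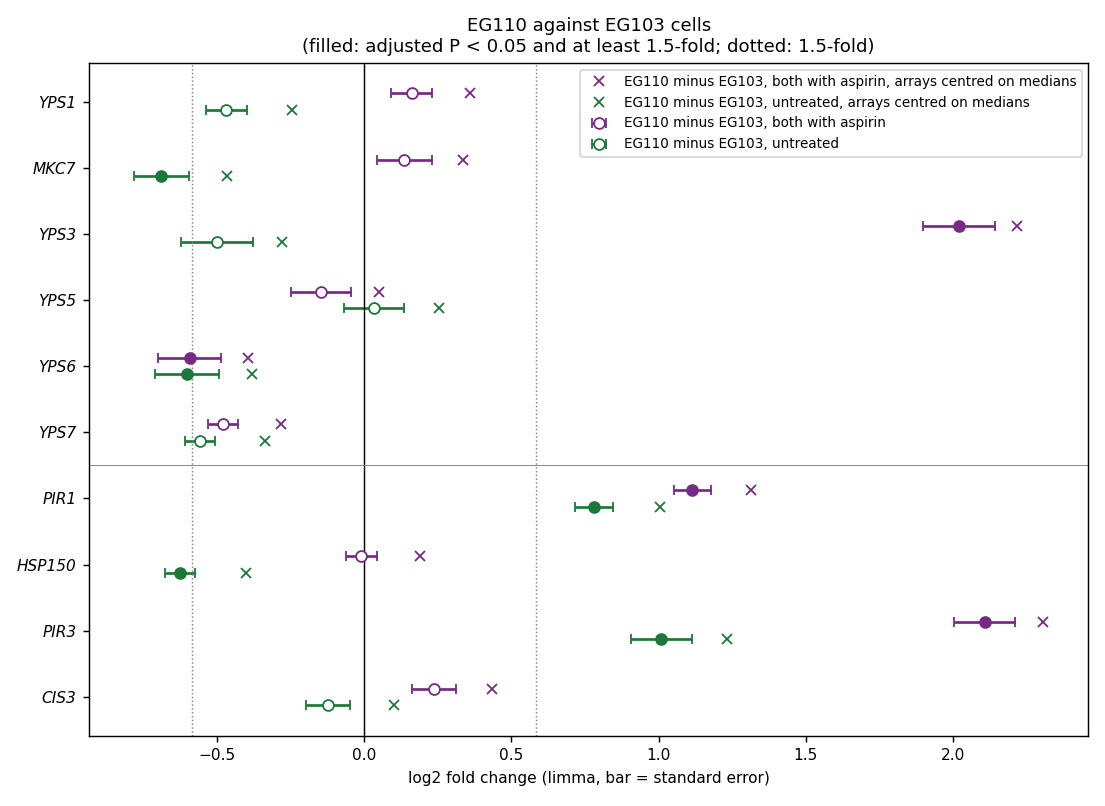
Strain difference of each gene as limma's log2 fold change (horizontal axis), EG110 minus EG103, with aspirin on both sides and without. Circles are deposited values with standard errors, filled where called, crosses are the values with each array centred on its median, and dotted lines mark 1.5-fold. *PIR1* (1.12 and 0.78) and *PIR3* (2.11 and 1.01) lie right of the upper line in both comparisons, and *YPS3* does so with aspirin only (2.02).

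The genes of the cell wall integrity pathway itself were counted beside the same shares of all tested probe sets. Of 27 genes for its sensors, kinases, regulators and factors, 13 rose and 3 fell with aspirin in EG110 cells, with a median of 0.17, where 27.2% of all rose and 25.1% fell. In EG103 cells 7 rose and 2 fell, with a median of 0.05, where 12% of all rose and 8.59% fell, and after joint quantile normalization 4 rose. Called were 3 higher and 1 lower of the 27 in EG110 cells (5.9% and 6.09% of all), and none higher and 1 lower in EG103 cells (1.75% and 0.857% of all). The calls in EG110 cells were the sensor gene *MID2* (0.92), the transcription factor gene *SWI4* (0.80) and the MAP kinase gene *SLT2* (0.75), all higher, and *SDP1* (-1.36), which encodes a phosphatase that acts on Slt2, lower. In EG103 cells the call was *BAG7* (-0.74). The effects differed by a called amount for *MID2* (1.09), *BAG7* (1.00) and *SLT2* (0.78), and in the negative direction for *SDP1* (-1.39) and the sensor genes *WSC4* (-0.62) and *WSC3* (-0.59). These were 3 positive and 3 negative of the 27, where 5.21% and 6.37% of all tested probe sets were called. Between untreated strains 1 of the 27 was called higher and 8 lower in EG110 cells (2 and 5 with centred arrays), where 7.45% and 17.4% of all were. With aspirin 2 were called higher and 6 lower (2 and 6 with centred arrays), where 7.03% and 18.1% of all were.

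Of 10 other wall genes known to be controlled through this pathway, 6 rose and 3 fell with aspirin in EG110 cells, with a median of 0.52, where 27.2% of all tested probe sets rose and 25.1% fell. In EG103 cells 1 rose and 3 fell, with a median of -0.0022, where 12% of all rose and 8.59% fell. In EG110 cells *NCW2* (1.35), the transglycosylase gene *CRH1* (1.08), *PST1* (1.04) and the chitin synthase gene *CHS3* (0.72) were called higher, 4 of 10 where 5.9% of all were, and the mannoprotein gene *CWP1* (-0.59, but -0.51 and not called after quantile normalization) was called lower, 1 of 10 where 6.09% were. *NCW2* was called lower in EG103 cells (-0.73), 1 of 10 where 0.857% of all were, and with centred arrays *PRM5* (0.59) was called higher. The effects differed by a called amount for *NCW2* (2.08), *CRH1* (1.28), *PST1* (1.28), *PUN1* (0.80) and *CHS3* (0.60, but 0.58 and not called with centred arrays), and in the negative direction for *CWP1* (-0.79). These were 5 positive and 1 negative of the 10, where 5.21% and 6.37% of all tested probe sets were called. Without aspirin *PUN1* (-2.12, centred -1.89), *NCW2* (-1.32, centred -1.10) and *CRH1* (-0.86, centred -0.63) were called lower in EG110 than in EG103 cells, 3 of 10 where 17.4% of all were, and *PST1* (1.15, centred 1.37) was called higher, 1 of 10 where 7.45% were. With aspirin *PST1* (2.43, centred 2.63) and *NCW2* (0.76, centred 0.95) were called higher, 2 of 10 where 7.03% of all were, and *PUN1* (-1.32, centred -1.12) and *CWP1* (-0.78, centred -0.58) lower, 2 of 10 where 18.1% were. With centred arrays *CWP1* was not called and *CRH1* (0.43 as deposited, 0.63 centred) was called higher.

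**Figure D4:**
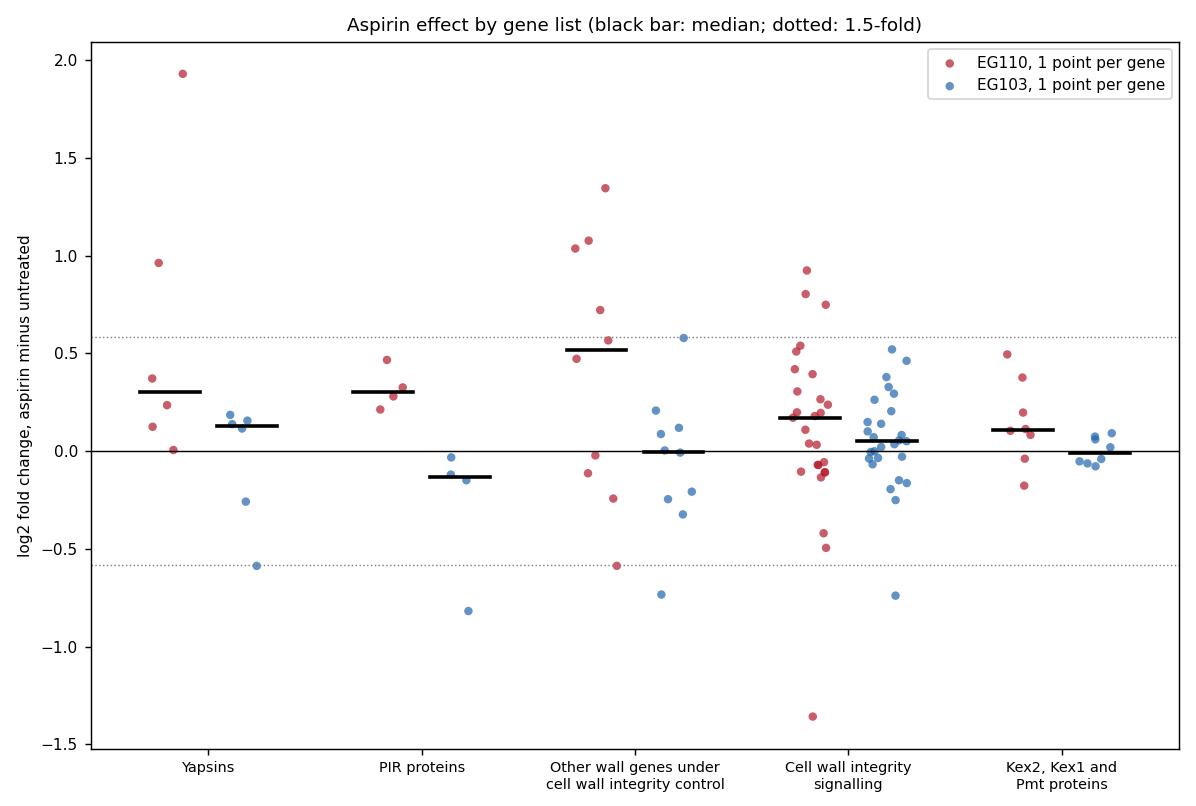
Aspirin effect as limma's log2 fold change (vertical axis), aspirin-treated minus untreated, for each gene of 5 groups in EG110 and EG103 cells. Points are genes, black bars are medians and dotted lines mark 1.5-fold. The medians in EG110 and EG103 cells were 0.52 and -0.0022 for the other wall genes and 0.17 and 0.05 for the signalling genes.

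None of 8 genes for the maturation of these proteins was called with aspirin. Of all tested probe sets, 5.9% were called higher and 6.09% lower in EG110 cells, and 1.75% and 0.857% in EG103 cells. Of *KEX2*, *KEX1* and the protein mannosyltransferase genes *PMT1* to *PMT6*, 2 of 8 rose in EG110 cells, where 27.2% of all tested probe sets did. None fell there, where 25.1% of all did. With the replicate block 1 of the 8 fell in EG110 cells, and after quantile normalization 3 rose. None passed the test in EG103 cells, where 12% of all rose and 8.59% fell. *PMT2* was called lower in EG110 than in EG103 cells without aspirin (-1.06, centred -0.84) and with it (-0.92, centred -0.72). This was 1 of 8 in each comparison, where 17.4% and 18.1% of all tested probe sets were called lower. Among the other aspartyl proteases of the secretory pathway, the vacuolar protease gene *PEP4* fell by 0.16 with aspirin in EG110 cells (adjusted P = 0.00962), with -0.0023 in EG103 cells (adjusted P = 0.979). *BAR1*, whose protease degrades α-factor, gave -0.06 (adjusted P = 0.616) and 0.10 (adjusted P = 0.475). Of known yapsin substrates, the glucanosyltransferase gene *GAS1* rose by 0.49 in EG110 cells (adjusted P = 0.000302) and fell by 0.25 in EG103 cells (adjusted P = 0.0444, but 0.0526 with centred arrays and 0.058 with the replicate block), a difference of 0.75 (adjusted P = 0.00043, called). *MSB2*, for a signalling mucin, rose by 0.30 in EG110 cells (adjusted P = 0.0113) and by 0.28 in EG103 cells (adjusted P = 0.0414, but 0.0612 with the replicate block). It was called higher in EG110 than in EG103 cells without aspirin (0.68, centred 0.90) and with it (0.70, centred 0.90). *PIR5*, a further gene of the family that neighbours *HSP150* and is listed as YJL160C in the deposited table, fell by 0.40 with aspirin in EG110 cells (adjusted P = 0.00355), with -0.06 in EG103 cells (adjusted P = 0.668). It went the other way from the 4 PIR members in EG110 cells, and with aspirin on both sides it was called lower in EG110 than in EG103 cells (-0.59, adjusted P = 0.000121), but not with centred arrays (-0.39) or after quantile normalization (-0.46).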

How the data were processed

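The deposited table holds log2 expression values that the authors made by RMA in AltAnalyze 2.0.8.1. Its 8 columns of the authors' fold changes and P-values were not used, and 0 columns of values per array were left unused. Whether both strains were normalized together, and the genome build behind the probe sets, are not given in the sources used here. Of the probe sets, the 5716 with an *S. cerevisiae* gene were tested (140 list several genes), 4999 have none and 213 are controls. Groups and replicate numbers came from the labels. Values were used as deposited, with no filter.

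limma 3.58.1 in R 4.3.3 fitted the 4 groups in 1 model (8 residual degrees of freedom), after a test on simulated data. P-values were adjusted by Benjamini-Hochberg over the 5716 probe sets in each of 5 comparisons, and errors are moderated standard errors unless SD is named. The number of arrays limits the precision. The median SD within a group was 0.055 to 0.087.

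The 10 members were taken by symbol, and they and the gene lists were chosen with earlier results of these data known. List genes are named where called, at most 6 for each list and comparison by size, or where a list holds 2 or fewer. Of the lists, 1 is not reported here. The 3 most alike profiles were given for the yapsin and the PIR gene of widest range. Deviations of same-numbered treated and untreated arrays correlated at 0.229, 0.142 and 0.343 in EG110 and at 0.0166, 0.485 and 0.45 in EG103. Differently numbered pairs gave -0.387 to 0.221 in EG110 and -0.492 to 0.182 in EG103. Same-numbered arrays of the strains gave -0.285 to 0.209. Pairing by number was thus not clear in every pair, so the replicate number was a block only in an alternative. The other alternatives were each array left out, quantile normalization, centring, other shrinkage, fewer arrays in the fit, the methods' t-test, a filter on low values, other fold thresholds and all probe sets but controls. Figures used matplotlib 3.10.9 in Python 3.11.15.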

Additional observations from a re-analysis of the deposited data

Results flagged for a closer look

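The aspirin effect differed between EG110 and EG103 cells in limma's test of the difference itself for 5 of the 10 members. The thresholds were an adjusted P below 0.05 and at least 1.5-fold. All 5 differences were positive, where 5.21% of all tested probe sets were called with a positive and 6.37% with a negative difference. As the log2 effect in EG110 minus that in EG103 cells, the difference was 2.52 for *YPS3*, 1.10 for *PIR3*, 0.82 for *MKC7*, 0.63 for *YPS1* and 0.62 for *HSP150*. Without untreated EG110 replicate 2, *YPS1* (0.575) and *HSP150* (0.572) went under the fold threshold. *YPS1* also did so without untreated EG103 replicate 2 (0.575). Groups of 3 arrays are too small for a search for single arrays far from their group.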

How the results depend on the processing

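Of the alternatives to the 50 log2 differences of the members, 966 kept direction and side of the threshold, 23 lost a call, 1 gained one and 20 changed sign, and the cause was not tested unless the setting itself gives it. Members called with aspirin in EG110 cells numbered 2, with 1 without the lowest 25% of probe sets (which removed *MKC7* and *YPS5*), 8 with no fold threshold, 1 at 2-fold, and 2 to 2 with an array left out. In EG103 cells they numbered 2, with 1 after quantile normalization, 1 after centring, 1 by the methods' t-test after Benjamini-Hochberg (adjusted P of 0.0762 for *PIR3*), 4 with no fold threshold, 0 at 2-fold (5 members had an unadjusted P below 0.05 in limma), and 1 to 2 with an array left out. Between untreated strains they numbered 5, with 2 after centring, 4 after quantile normalization, 8 with no fold threshold, 1 at 2-fold, and 3 to 5 with an array left out, 3 being without untreated EG110 replicate 2. Between strains with aspirin they numbered 4, with 3 to 6 in the other settings and 3 to 4 with an array left out. *YPS6* lost its call after centring (-0.39) and after quantile normalization (-0.41), and the 6 were with no fold threshold. For the strain comparisons, the share of all tested probe sets that passed with no fold threshold is not given here. The counts of 8 without and 6 with aspirin therefore cannot be read as many or few. For the difference of effects they numbered 5, with 2 at 2-fold, and 3 to 5 with an array left out, 3 again without untreated EG110 replicate 2. The replicate block left the counts at 2, 2, 5, 4 and 5 and changed no member's call, but *GAS1* and *MSB2* in EG103 cells then missed the test. The sign changed for 6 values. They were *YPS5* with aspirin in EG110 cells (-0.011 centred, -0.058 to 0.085 with an array left out), *YPS5* between untreated strains (-0.045 to 0.10 with an array left out) and between strains with aspirin (0.019 quantile, 0.052 centred), *CIS3* between untreated strains (0.10 centred), *HSP150* between strains with aspirin (0.079 quantile, 0.19 centred, -0.031 to 0.017 with an array left out), and the difference of effects of *YPS6* (-0.021 quantile, -0.016 centred, -0.077 to 0.13 with an array left out). In EG103 cells *HSP150* had an adjusted P of 0.0112 after quantile normalization. The methods' t-test and the fit to fewer arrays give no difference of effects. *YPS5* was limited by signal near background, and *PIR3* and *HSP150* lay near the highest values of the arrays.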
